A study of Strongylocentrotus purpuratus with 17 samples.

Results

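Elk, FSCN1, Sdc, SHR3 and duox1 are 5 genes of the purple sea urchin, Strongylocentrotus purpuratus, around which many transcribed regulatory elements were listed in embryos at 20 h and few at 72 h. They were matched by symbol among the 30064 genes that could be placed on a scaffold. They were chosen by their measured numbers of elements: 9 or more of the 20 h list, and 3 or fewer of the 72 h list, had their midpoint in the gene or within 10 kb of it. The 20 h and 72 h counts are therefore given as a description. The elements came from PRO-seq, which sequences RNA made by polymerases that run on in isolated nuclei, and were called by dREG, a program that recognises promoters and enhancers by transcription leaving them on both strands.

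The 4 lists covered embryos of genotype Wild grown at 15 °C. By their titles, the libraries were 2 at 8 h from 1 biological replicate, 4 at 12 h from 3, 5 at 20 h from 4 and 2 at 72 h from 2. The labels' tissue field names 8 hour hatching blastula embryos for every library, so stages were taken from the titles. Each stage had 1 list made from all its libraries, which held only positions. Values therefore carry no replicate error and no test was made, and the read depth behind an element is unknown. The lists held 56158, 30570, 37796 and 4425 elements at 8 h, 12 h, 20 h and 72 h, so fewer elements around a gene at 72 h could not be told apart from a shorter list. The labels mark the libraries of 12 h and 20 h as re-analysed from an earlier study, so a difference of either from 8 h or 72 h is also one between sets of libraries.

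The genes have unlike roles. Elk encodes a transcription factor of the ETS family, and its mammalian relatives are switched on by MAP kinases and act with serum response factor. FSCN1 encodes fascin, which ties actin filaments into stiff bundles and is a known protein of sea urchin eggs and coelomocytes. Sdc encodes syndecan, a proteoglycan of the cell surface whose heparan sulfate chains bind growth factors and matrix. The gene duox1 carries the synonym Udx1, the dual oxidase that makes the hydrogen peroxide of the sea urchin egg's oxidative burst at fertilization. SHR3 has a symbol like that of shr2, an orphan nuclear receptor. An active element of the kind listed here can be the promoter of the gene, the promoter of another gene or an enhancer, and the lists do not say which.

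At 8 h, 12 h, 20 h and 72 h the 5 genes together had 38, 32, 52 and 8 elements. These covered 11.9%, 9.95%, 16.1% and 2.49% of the genes and their 10 kb flanks. Their density in elements per 10 kb was 1.41, 1.19, 1.94 and 0.298. The same density over the 21 scaffolds that carry placed genes was 0.629, 0.344, 0.432 and 0.0519. The 20 h and 72 h densities follow from the choice of genes, and those at 8 h and 12 h are not independent of it, since many 20 h elements were the same places held at those stages. Whole scaffolds also hold the space between genes, so nothing is read from the difference.

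In the order 8 h, 12 h, 20 h and 72 h, Elk had 7, 5, 11 and 1 elements, and FSCN1 had 7, 6, 11 and 2. Sdc had 5, 7, 11 and 3. SHR3 had 11, 7, 10 and 1, and duox1 had 8, 7, 9 and 1. The 20 h count was the highest of the 4 for Elk, FSCN1, Sdc and duox1, while SHR3 had 1 element more at 8 h. For duox1 the order of 20 h and 8 h changed with the way of counting, as given in the last section. All 5 had more elements at 20 h than at 12 h, as had 31.5% of all placed genes and 44.6% of the 2773 protein-coding genes of 25 to 42 kb, the length range of the 5. Fewer elements at 20 h than at 12 h were found in 23.3% of placed genes. Between 8 h and 12 h, 4 genes had fewer elements at 12 h, as had 57.5% of placed genes and 71.8% of those of like length, and Sdc had more, as had 9.22% and 7.9%. The 12 h list was the shorter of the pair. Among the widest 4425 elements of each list, which makes the lists equally long, none of the 5 genes had fewer at 12 h than at 8 h. The totals there were 5, 8, 11 and 8 at the 4 stages. That cut keeps a larger share of the 12 h list than of the 8 h list and leaves few elements per gene. An effect of list length was therefore not tested. Set against 8 h, 4 of the 5 had more elements at 20 h, as had 16.2% of placed genes and 21.6% of those of like length, and SHR3 had fewer, as had 52.7% and 58.9%. The choice of genes by their 20 h count bears on each comparison with that stage. At 72 h all 5 had fewer elements than at 20 h, which the thresholds require. The same held for 63.9% of placed genes and 81% of those of like length, and 0.406% and 0.361% had more.

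**Figure D1:**
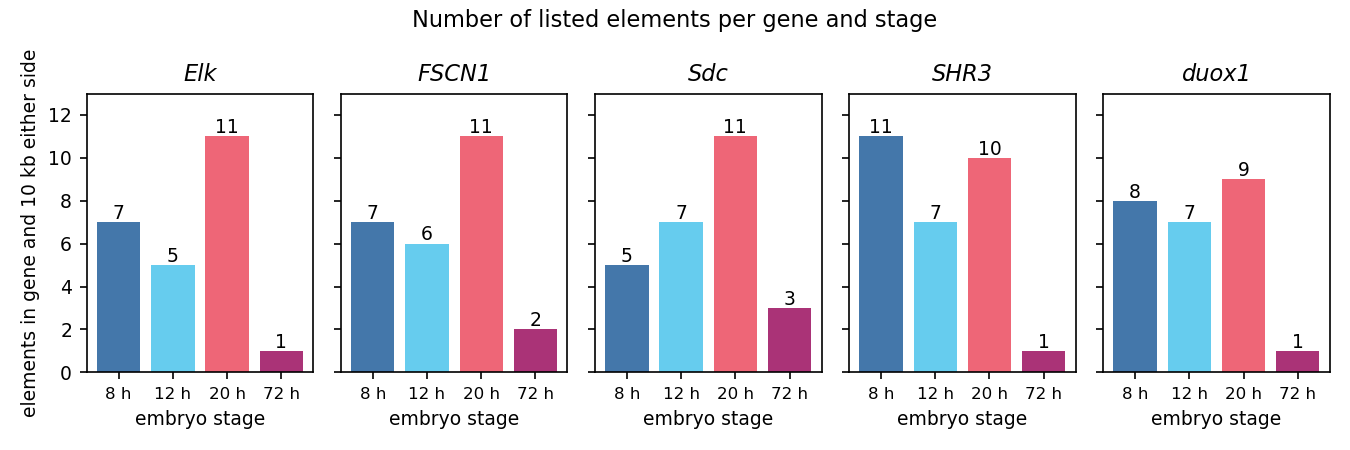
Number of elements whose midpoint lies in each gene or within 10 kb of it (vertical axis) in the 8 h, 12 h, 20 h and 72 h lists, 1 pooled list per stage and no error. Every gene has 9 to 11 elements at 20 h and 1 to 3 at 72 h, and SHR3 alone is higher at 8 h than at 20 h.

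These were not the genes with the most 20 h elements. Of all placed genes, 1.09% had 9 or more at 20 h, 99.8% had 3 or fewer at 72 h, and 311 genes, 1.03%, met both thresholds. Among protein-coding genes of 25 to 42 kb, 2.63% had 9 or more. The highest number at any gene was 27, and 81 genes had more than the 11 of Elk, FSCN1 and Sdc. Of the 1258 placed genes that carry a name rather than a locus number, with tRNA genes left out, 16 met both thresholds. The other 11 were GATAc with 17 elements at 20 h, Dlx and Tbx2/3 with 13, COLP4alpha and otx with 12, wnt1 and Mir92b with 10, and GATAe, Hbox7, SpRunt-1 and Mir92c with 9. Just inside the limit of 9 lay duox1 with the last 4 of these. Just outside it, with 8, lay ARS, COLP3alpha, FoxA, FoxJ1, Klf7, Mir92a, SM29, TPC1 and soxd1. None of these named genes had 9 or more at 20 h and 4 at 72 h, and 9 genes with a locus number or a tRNA symbol did.

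**Figure D2:**
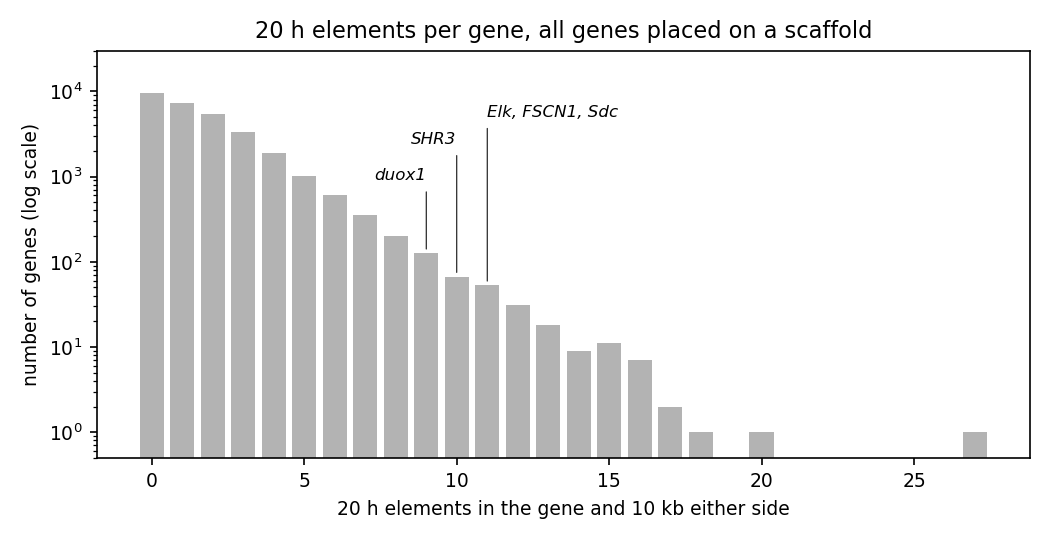
Number of placed genes (log scale) by the number of 20 h elements in the gene and 10 kb either side. Elk, FSCN1 and Sdc stand at 11, SHR3 at 10 and duox1 at 9, with 81 genes above 11 and the highest at 27.

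At the earlier stages the genes stood high to different degrees, and less so among protein-coding genes of 25 to 42 kb than among all placed genes, which are shorter. At 8 h, 14.1% of placed genes had 5 or more elements, as all 5 of these did. At 12 h, 4.03% had 5 or more, and all 5 again did. The cut of 5 was the lowest count among the 5 genes at both stages, so all of them reach it by construction. Counts at 8 h and 12 h are also not independent of the choice of genes by their 20 h count. Taken singly, SHR3 with 11 elements at 8 h was matched or passed by 0.266% of placed genes and 0.397% of those of like length. Sdc with 5 was matched or passed by 14.1% and 32.3%, and Elk and FSCN1 with 7 by 3.86% and 10.7%. At 12 h Sdc stood level with SHR3: Sdc, SHR3 and duox1, each with 7, were matched or passed by 0.772% of placed genes and 1.98% of those of like length, and Elk with 5 by 4.03% and 8.51%. At 72 h, 20.6% of placed genes and 30.5% of those of like length had at least the 1 element of Elk, SHR3 and duox1, and 0.842% and 1.44% had at least the 3 of Sdc.

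The positions of the elements differed from gene to gene. Positions below are those of the 20 h element on the Spur_5.0 assembly, counted from 1, unless another stage is named. The annotation table used gives no scaffold, so the scaffold named for each gene was inferred from where gene ends meet elements. It gives no strand, so the ends of a gene are called its low-coordinate and high-coordinate end, and which of them is the transcription start is not known here. It gives no exons either, so elements inside a gene could not be divided into exonic and intronic ones. An element was held at another stage where it overlapped an element of that stage by at least 1 bp. When elements of any stage that overlap were joined, the 5 genes had 63 regions, 13 at Elk, 12 each at FSCN1, Sdc and duox1 and 14 at SHR3. Of the 63, 16 were held at 20 h alone, 11 at 8 h and 20 h, 10 at 8 h, 12 h and 20 h, 7 at all 4 stages, 7 at 8 h alone, 5 at 12 h and 20 h, 4 at 12 h alone, 2 at 8 h and 12 h, and 1 at 12 h, 20 h and 72 h.

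**Figure D3:**
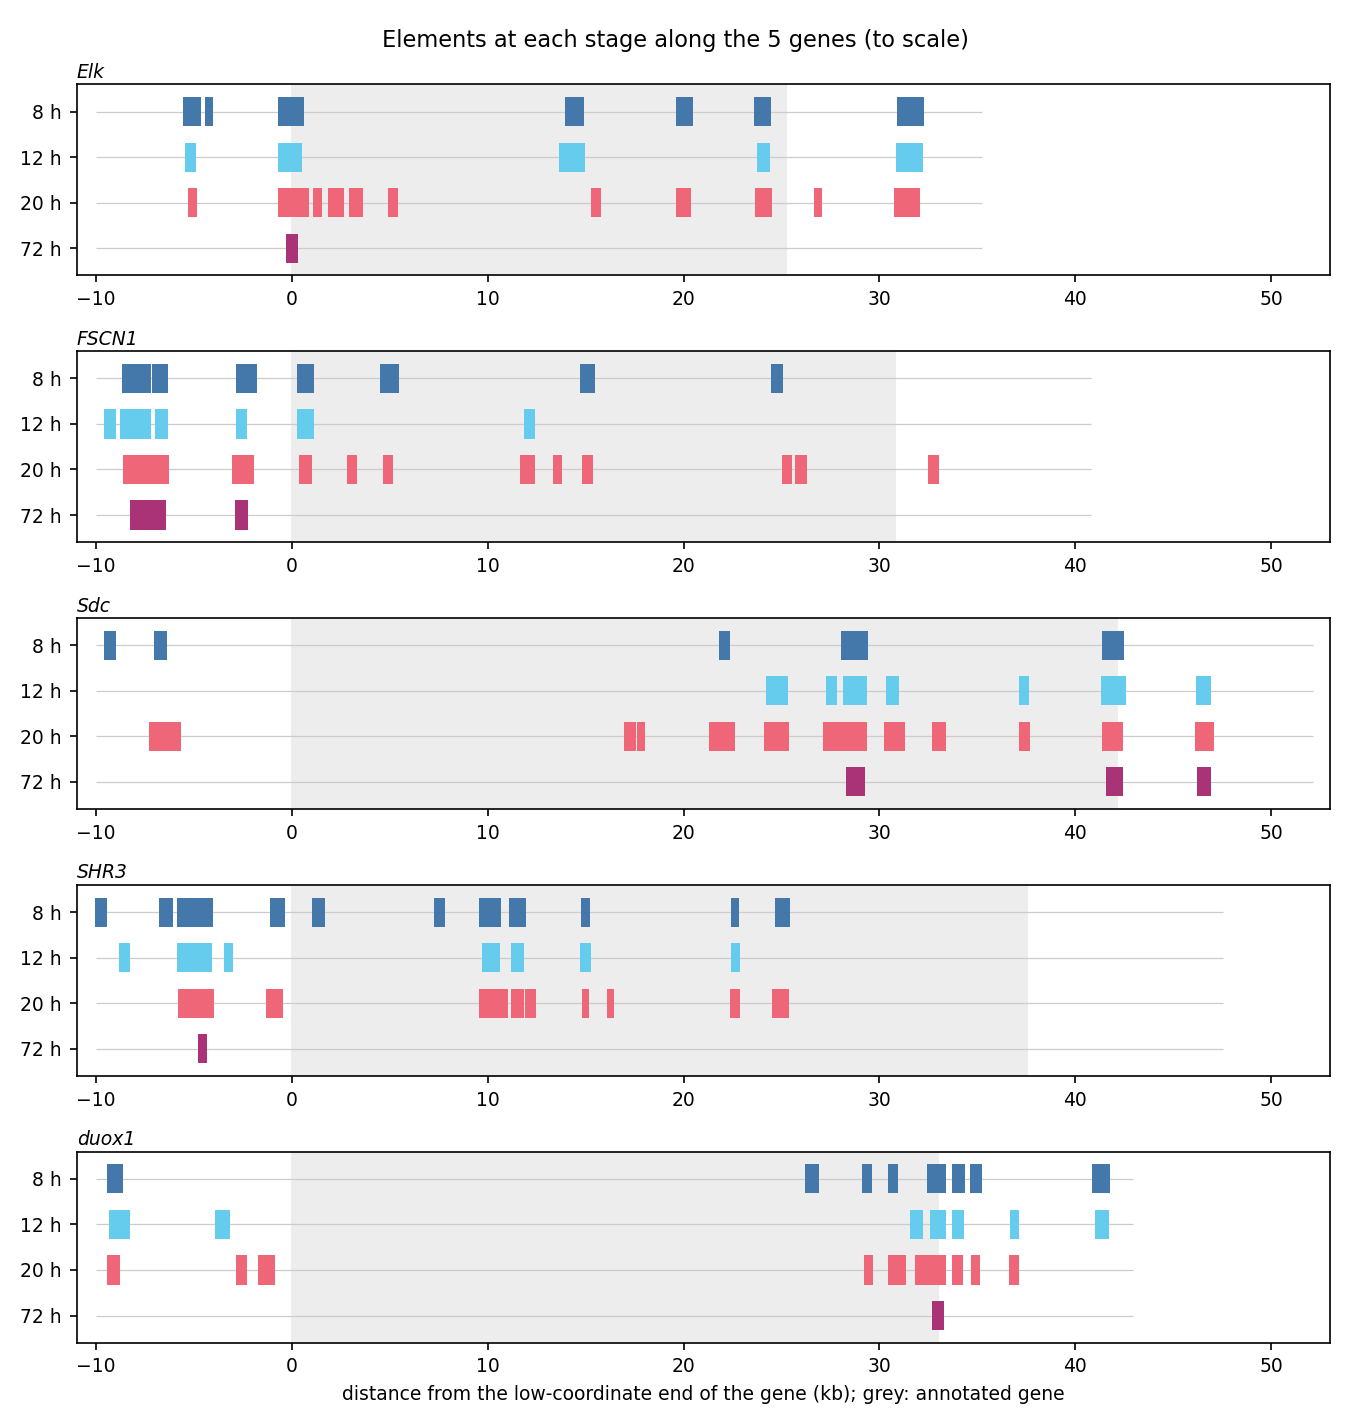
Elements of each stage along the 5 genes, drawn to scale, with the horizontal axis giving the distance in kb from the low-coordinate end of the gene, and the annotated gene in grey. The 20 h elements crowd the first 6 kb of Elk and run through FSCN1, leave the first 16 kb of Sdc and the first 29 kb of duox1 empty, and only 8 elements are left at 72 h.

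Elk (gene ID 373486) lies on NW_022145612.1 from 54188142 to 54213372 and spans 25.2 kb. Its low-coordinate end carried the only element listed at all 4 stages, at 54187411 to 54189010 and 1600 bp wide, against 1290 bp at 8 h, 1270 bp at 12 h and 610 bp at 72 h. Inside the gene just beyond it, 4 elements were listed at 20 h alone. They lay at 54189221 to 54189670 (450 bp), 54189961 to 54190820 (860 bp), 54191041 to 54191770 (730 bp) and 54193041 to 54193550 (510 bp). The 7 kb from 1 kb before this end to 6 kb inside, a stretch chosen after the map was seen, thus held 5 of the 11 elements at 20 h and 1 element at each other stage.

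Deeper inside Elk the stages differed in position. At 14.3 kb from the low-coordinate end an element of 980 bp at 8 h and 1320 bp at 12 h, with 12 h position 54201801 to 54203120, was not listed at 20 h. An element of 490 bp at 54203431 to 54203920, listed at 20 h alone, lay beyond it at 15.5 kb. The element at 54207761 to 54208530 (770 bp) had been listed at 8 h and not at 12 h, and that at 54211791 to 54212680 (890 bp) at both. Outside the gene, 54182811 to 54183290 (480 bp) and 54218901 to 54220220 (1320 bp) were held at 8 h and 12 h, and 54214791 to 54215210 (420 bp) at 20 h alone. The 1320 bp element spans the low-coordinate end of the next gene, LOC576431, at 54219412, and has that gene and not Elk as its nearest. An 8 h element of 410 bp at 54183691 to 54184100 was held at no other stage. Elk had the largest number of regions held at 20 h alone among the 5 genes, 6 of its 13.

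FSCN1 (gene ID 373309) lies on NW_022145599.1 from 24036336 to 24067124, 30.8 kb. Both elements that it kept at 72 h lay outside the gene, below its low-coordinate end. The wider, at 24027721 to 24030070, was 1 element of 2350 bp at 20 h, the widest of all those around the 5 genes, and 1 of 1830 bp at 72 h. At 8 h it was listed as 2 elements of 1460 and 820 bp, and at 12 h as 2 of 1600 and 700 bp, so the counts before 20 h hold 1 more element for the same stretch. The other, at 24033271 to 24034380, measured 1100 bp at 8 h, 570 bp at 12 h, 1110 bp at 20 h and 640 bp at 72 h. The element at the low-coordinate end, 24036701 to 24037340 (640 bp), was listed at 8 h and 12 h too, with 840 bp at both, and not at 72 h.

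Inside FSCN1 the 20 h list had 8 elements, against 4 at 8 h, 2 at 12 h and 0 at 72 h. At 24040961 to 24041500 (540 bp), 24051141 to 24051690 (550 bp) and 24061341 to 24061880 (540 bp) it met elements of the 8 h list that were missing at 12 h. The last of these met only the edge of its 8 h element, 24060821 to 24061410. At 24047961 to 24048760 (800 bp) the 20 h list met an element of the 12 h list alone. Listed at 20 h alone were 24039131 to 24039660 (530 bp), 24049641 to 24050110 (470 bp) and 24062021 to 24062650 (630 bp), and, beyond the high-coordinate end, 24068801 to 24069400 (600 bp). A 12 h element of 650 bp at 24026721 to 24027370 was held at no other stage.

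Sdc (gene ID 576447) is the longest of the 5 with 42.2 kb, on NW_022145613.1 from 425047 to 467198. It was also the gene with the most elements at 72 h and the only one with more elements at 12 h than at 8 h. Its 72 h elements lay at the high-coordinate end (466641 to 467470), 46.6 kb from the low-coordinate end and so beyond the gene (471261 to 471970) and inside the gene (453321 to 454300). At 20 h these were 466391 to 467480 (1090 bp), 471161 to 472120 (960 bp) and 452191 to 454400 (2210 bp). The element beyond the gene was missing at 8 h, and the other 2 were held at all 4 stages. The 2210 bp element stood where the 12 h list had 2 elements of 570 and 1250 bp.

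The other 20 h elements of Sdc lay mostly towards the high-coordinate end of the gene. Those at 449161 to 450450 (1290 bp), 455271 to 456340 (1070 bp) and 462201 to 462720 (520 bp) had been listed at 12 h and not at 8 h. That at 446351 to 447690 (1340 bp) had been listed at 8 h, with 530 bp, and not at 12 h. Listed at 20 h alone were a pair 50 bp apart, 441991 to 442610 (620 bp) and 442661 to 443090 (430 bp), and 457731 to 458430 (700 bp). Below the gene, 417751 to 419390 (1640 bp) was held at 8 h, with 640 bp, and lies nearer to LOC576378 than to Sdc. An 8 h element at 415461 to 416060 (600 bp) was held at no other stage. No element of any stage lay between 5 kb below Sdc and 16.5 kb inside it, a stretch of 21.5 kb chosen after the map was seen.

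SHR3 (gene ID 574072) lies on NW_022145610.1 from 33933188 to 33970711, 37.5 kb. Of its 10 elements at 20 h, 9 had been listed at 8 h, and 1, at 33949251 to 33949640 (390 bp), was held at no other stage. Those held at both 8 h and 12 h inside the gene were 33942721 to 33944240 (1520 bp), 33944381 to 33945020 (640 bp), 33947981 to 33948340 (360 bp) and 33955561 to 33956050 (490 bp). The elements at 33945101 to 33945630 (530 bp) and 33957721 to 33958590 (870 bp) were held at 8 h and not at 12 h. So was the element near the low-coordinate end, 33931881 to 33932720 (840 bp), which SHR3 therefore had at 8 h and 20 h and not at 12 h or 72 h. The 530 bp element met only the edge of its 8 h element, 33944281 to 33945120, which was itself also listed at 12 h.

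The single 72 h element of SHR3 lay at -4.58 kb from the low-coordinate end, outside the gene, at 33928371 to 33928840 (470 bp). At 8 h and 12 h the same place carried 1 element of 1800 and 1780 bp, and at 20 h a pair 20 bp apart, 33927371 to 33928010 (640 bp) and 33928031 to 33929190 (1160 bp). SHR3 also had the most regions missing from the 20 h list, 6 of 14. At 8 h alone these were 33923131 to 33923750 (620 bp), 33926381 to 33927090 (710 bp), 33934201 to 33934880 (680 bp) and 33940431 to 33940980 (550 bp). At 12 h alone they were 33924371 to 33924930 (560 bp) and 33929711 to 33930190 (480 bp). The stretch of SHR3 from 25.5 kb to its high-coordinate end, with the 10 kb that follow, held no element at any stage.

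The gene duox1 (gene ID 588656) lies on NW_022145615.1 from 31838355 to 31871330, 33.0 kb. The elements counted for it crowded around its high-coordinate end, on both sides of it. The 9 kb from 29 to 38 kb, chosen after the map was seen, run past the gene and into LOC100893745, which starts at 31873819. This stretch held 5 of 8 elements at 8 h and 4 of 7 at 12 h. At 20 h it held 6 of 9, and at 72 h the 1 element. The 20 h elements at 34.9 and 36.9 kb lie nearer to LOC100893745 than to duox1. The 29 kb of the gene before this stretch held 1 element at 8 h (31864571 to 31865260, 690 bp) and none at the other stages. The element at the end itself, 31870171 to 31871760 and 1590 bp wide, was held at all 4 stages, with 980 bp at 8 h, 2 elements of 640 and 790 bp at 12 h and 620 bp at 72 h.

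Around this element of duox1, 31872061 to 31872620 (560 bp) was held at 8 h and 12 h. The elements at 31867551 to 31868030 (480 bp), 31868791 to 31869690 (900 bp) and 31873031 to 31873500 (470 bp) were held at 8 h and not at 12 h, and 31874961 to 31875480 (520 bp) at 12 h and not at 8 h. On the other side of the gene, 31828891 to 31829580 (690 bp) was held at 8 h and 12 h, and 31835471 to 31836030 (560 bp) and 31836621 to 31837460 (840 bp) at 20 h alone. A 12 h element at 31834401 to 31835180 (780 bp) and an element at 31879221 to 31880140 (920 bp) of the 8 h list, also listed at 12 h, were missing at 20 h. All 9 of the 20 h elements also lie in or within 10 kb of another gene, LOC100893682 below or LOC100893745 above. Those from 31828891 and from 31835471 lie inside LOC100893682, and that from 31874961 lies inside LOC100893745. The gene duox1 was the nearest gene of only 4. Counted by nearest gene, duox1 had 5, 3, 4 and 1 elements at the 4 stages. For Elk, FSCN1, Sdc and SHR3 the gene itself was nearest to 10 of 11, 11 of 11, 10 of 11 and 10 of 10 elements at 20 h.

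The totals in the bodies of the 5 genes and in their 10 kb flanks took different courses. At all but Sdc the flanks reach into another gene. At 8 h, 12 h, 20 h and 72 h the 5 gene bodies together held 21, 15, 35 and 3 elements, while their 10 kb flanks held 17, 17, 17 and 5. Per gene, the bodies at 12 h and 20 h held 2 and 8 elements in Elk, 2 and 8 in FSCN1, 6 and 9 in Sdc, 4 and 7 in SHR3, and 1 and 3 in duox1. The flanks held 3 and 3 at Elk, 4 and 3 at FSCN1, 1 and 2 at Sdc, 3 and 3 at SHR3, and 6 and 6 at duox1. All 5 bodies thus held more at 20 h than at 12 h, as did 16.9% of placed genes and 34.8% of those of like length. Of the 5 flanks 1 did, against 26.6% of placed genes and 31.4% of those of like length. Since the genes were chosen by their 20 h count, a high body or flank count at 20 h is partly set by that choice. In the other 306 genes that met both thresholds the means rose in both. At 12 h and 20 h they were 2.74 and 7.12 in the body and 1.82 and 3.53 in the flanks. Protein-coding genes of 25 to 42 kb had means of 1.18 and 1.55 in the body and 0.937 and 1.20 in the flanks. Further out, from 10 to 50 kb either side, the 5 genes had 0.775, 0.375, 0.525 and 0.075 elements per 10 kb at 8 h, 12 h, 20 h and 72 h, nearer to the scaffolds' density than the genes themselves. From 50 to 100 kb either side the densities were 0.78, 0.34, 0.82 and 0.1, and 18 of the 41 elements found there at 20 h lay around Sdc.

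**Figure D4:**
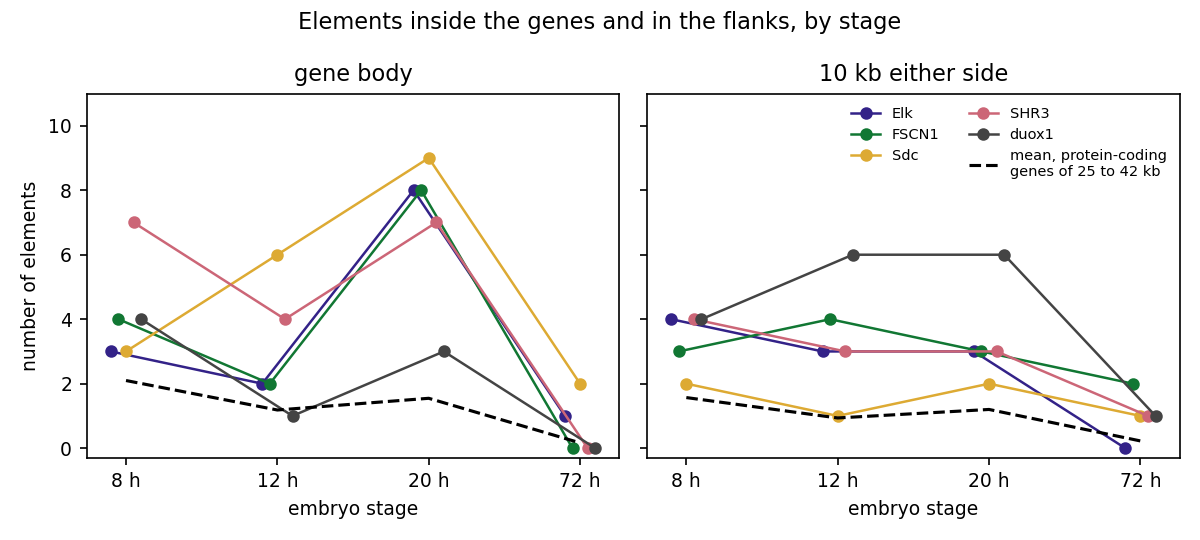
Number of elements in the gene body (left) and in the 10 kb either side (right) by stage for each gene, with points shifted sideways to be seen, and as a dashed line the mean over protein-coding genes of 25 to 42 kb. The bodies of Elk and FSCN1 hold 2 elements at 12 h and 8 at 20 h, while the flanks of the 5 genes hold 17 in all at 8 h, 12 h and 20 h.

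At 20 h, 3 of the 5 genes had an element at the low-coordinate end (Elk, FSCN1 and SHR3) and 2 at the high-coordinate end (Sdc and duox1), where an end means 500 bp to both sides of it. None had one at both. All 5 genes had such an element at 8 h and 20 h, 4 at 12 h and 3 at 72 h (Elk, Sdc and duox1). Among all placed genes, 46.6%, 36.7%, 39.1% and 11.1% had an element at an end at 8 h, 12 h, 20 h and 72 h. Where a gene had an end element at 12 h, it stood at the same end as at 8 h and 20 h. Most elements were elsewhere: at 20 h, 5 lay at an end, 31 inside a gene and 16 in a flank.

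Of the 52 elements at 20 h, 30 had been listed at 8 h (57.7%, exact binomial 95% interval 43.2 to 71.3), against 61.2% of the whole 20 h list. At 12 h, 24 had been listed (46.2%, 32.2 to 60.5), against 49.3%. The intervals cover counting error only. Held at 72 h were 8 (15.4%), against 10.8%, and held at 20 h alone were 16 (30.8%), against 33.4%. With an overlap of at least 50% of each element asked for, 7.69% were held at 72 h and 40.4% at 20 h alone. The limits on the 20 h and 72 h counts bound these shares, so they are a description. In the other genes that met both thresholds, 3168 elements at 20 h were held at 8 h in 48.1%, at 12 h in 36.4%, at 72 h in 9.34% and at 20 h alone in 46.4% of cases.

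The 5 genes differed among themselves in how many of their 20 h elements were held at no other stage. These were 6 of 11 at Elk, 4 of 11 at FSCN1, 3 of 11 at Sdc, 2 of 9 at duox1 and 1 of 10 at SHR3. Exact 95% intervals ran from 23.4% to 83.3% for Elk and from 0.253% to 44.5% for SHR3. They cover counting error only and treat the elements of a gene as independent, though these are not replicates. The lists are pooled and the 20 h counts chose the genes, so this order is a description and was not tested. Of the 16, 12 lay inside a gene away from its ends and 4 in a flank. None lay at a gene end, but only 5 of all 52 did. Of the other 36, 18 had been listed at both 8 h and 12 h (34.6% of the 52, against 44.3% of the whole 20 h list), 12 at 8 h and not at 12 h (23.1%, against 16.9%), and 6 at 12 h and not at 8 h (11.5%, against 4.95%). These differences were not tested, and the 12 h list is the shorter of the earlier lists. The 12 elements at 20 h that overlapped the 8 h list and not the 12 h list were found at all 5 genes. They were 3 each at FSCN1, SHR3 and duox1, 2 at Sdc and 1 at Elk. Joined into regions they were 11, with 2 at SHR3, since 1 of its 3 met only the edge of an 8 h element that was also listed at 12 h. At FSCN1, 1 of the 3 also met only the edge of its 8 h element.

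Elements held at 72 h were wider than the rest. The 8 elements of the 20 h list that were held at 72 h had a median width of 1375 bp and ran from 960 to 2350 bp. The 28 held at 8 h or 12 h and not at 72 h had a median of 640 bp (360 to 1640 bp), and the 16 held at 20 h alone one of 545 bp (390 to 860 bp). The narrowest element held at 72 h was thus wider than the widest of those held at 20 h alone. The whole 20 h list had the same order, with medians of 1030 bp for elements held at 72 h and 600 bp for the rest. A wider element has more bases with which to meet another, so width and this measure of sharing are not independent. Median widths of all elements around the 5 genes were 800 bp at 8 h, 680 bp at 12 h, 640 bp at 20 h and 675 bp at 72 h, against 640, 660, 620 and 560 bp in the whole lists.

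**Figure D5:**
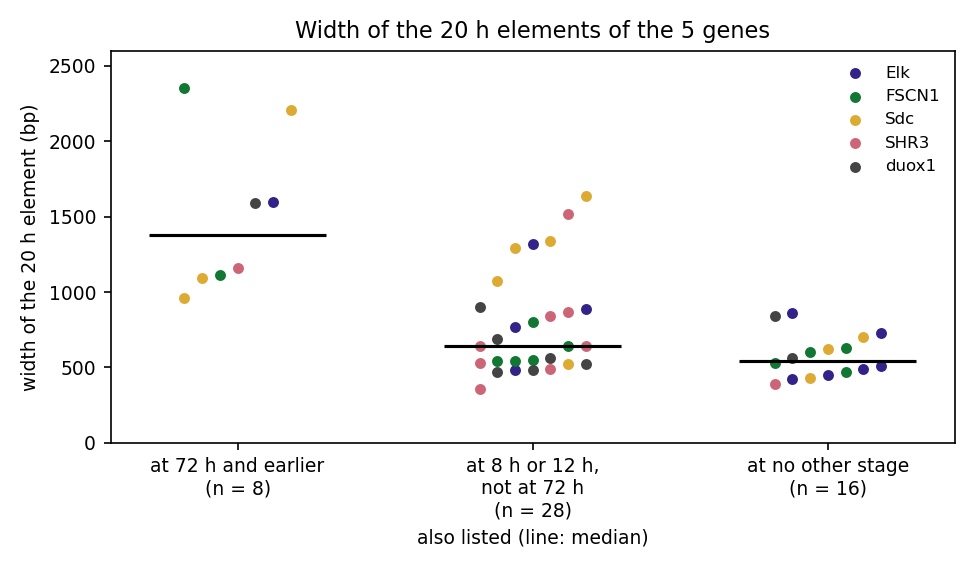
Width in bp of each of the 52 elements at 20 h, by the other stages that hold it, coloured by gene, with lines at the medians of 1375, 640 and 545 bp. The 8 elements held at 72 h lie at 960 bp or above, and the 16 held at 20 h alone lie at 860 bp or below.

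All 8 elements at 72 h overlapped elements of the 12 h and 20 h lists, and 7 of the 8 an element of the 8 h list. The exception was the element beyond the high-coordinate end of Sdc. No element was listed around these genes at 72 h alone. In the whole 72 h list, 90.9% of elements overlapped the 8 h list, 87.8% the 12 h list and 93% the 20 h list, so that such overlap was the general state.

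The gaps between neighbouring 20 h elements differed among the genes. The median gap was 2685 bp at Elk, 2055 bp at FSCN1, 2500 bp at Sdc, 1670 bp at SHR3 and 675 bp at duox1. The median gap of the whole list was 8790 bp, and shorter gaps follow from choosing genes with many elements in a short stretch. The longest gaps were 30090 bp at duox1 and 22600 bp at Sdc, the empty stretches described above. Gaps of 1 kb or less numbered 5 of 8 at duox1, 4 of 9 at SHR3, 3 of 10 at Elk and 2 of 10 each at FSCN1 and Sdc. In the whole list 13.6% of the 37700 gaps were that short. The choice of genes bears on this comparison too.

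The named genes whose 4 counts lay nearest, by the sum of the absolute differences over the 4 stages, were in part members of the group itself. Elk lay nearest to FSCN1 (sum of 2) and then to COLP4alpha (4), which had 9, 5, 12 and 0 elements at 8 h, 12 h, 20 h and 72 h. FSCN1 lay nearest to Elk and then to Hbox7 (3), with 8, 6, 9 and 2. Sdc lay nearest to FSCN1 (4) and to ARS (4), an arylsulfatase gene with 6, 7, 8 and 3. SHR3 lay nearest to duox1 (4) and wnt1 (5), which had 10, 3, 10 and 1. The closest pair was duox1 with TPC1 (1), with 8, 7, 8 and 1. The measure includes the 20 h and 72 h counts that chose the genes, so likeness among the 5 is partly set by that choice. It rests on 4 pooled lists and says how like the counts are, nothing more.

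Few relatives of these genes could be matched by symbol, since most genes of the table carry only a locus number. Of the ETS family, ets1, a regulator of skeletogenic mesenchyme, had 6, 4, 6 and 1 elements at 8 h, 12 h, 20 h and 72 h, Ets4 had 7, 3, 6 and 2, and erg had 4, 1, 2 and 0, against 7, 5, 11 and 1 for Elk. The table matched 4 of 13 symbols of this family. Besides Elk, which was chosen by its 20 h count, the 3 matched genes had a lower count at 12 h than at 8 h (57.5% of placed genes had) and a higher one at 20 h than at 12 h (31.5% had), erg by 1 element. Of the cytoskeletal actin genes, CyI had 7, 3, 6 and 1, CyIIIa 4, 6, 4 and 1 and cyiiib 6, 3, 0 and 0, so that 1 of the 3 had more at 20 h than at 12 h, as had 31.5% of placed genes, and the other 2 had fewer, as had 23.3%. The nuclear receptor gene shr2 had 5, 2, 3 and 1 elements. Among the symbols searched for heparan sulfate proteoglycans and for oxidases, Sdc and duox1 themselves were the matches, and Sdc was the one symbol on its list.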

How the data were processed

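The deposited lists hold positions and no other value: 3 columns give scaffold, start and end, in steps of 10 bp, without overlaps within a list. Per the labels' descriptions, a list holds the dREG peaks of its stage, with every library of that stage assigned to it, on the Sp 5.0 genome. The aligner, the caller's settings and the pooling are steps not given in the sources used here. The 2 quick PRO-seq libraries at 72 h and the 2 of red spherule cells were not analysed here.

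Gene positions came from a RefSeq table of Spur_5.0 without scaffolds. Runs of at least 900 genes with rising starts were placed on the scaffold with the largest share of gene ends at most 500 bp from an element of the 8 h list, which placed 30064 of 33503 genes on 21 scaffolds. The chosen scaffold's share was 1.66 to 3.73 times the next best. For the genes within 50 table entries of each of the 5, the chosen scaffold came out best with all 4 lists (20 of 20 comparisons), by 1.42 to 3.6 times where another scaffold was long enough. For Elk none other was, so its comparisons could not come out otherwise. Those with the 8 h list reused the list that did the placing and are no separate check. Scaffolds therefore remain inferred.

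Counting was checked on simulated lists. Python 3.11.15, pandas 2.3.3 and scipy 1.17.1 were used. The members, gene lists and stretches were chosen with earlier results of these data known. Named genes were the 5, the 2 nearest patterns of each, genes with a name at or past the thresholds, neighbours, and list members. Planned starts of genes were replaced by both ends, as no strand was at hand. Sequences are not given, as none were at hand.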

Additional observations from a re-analysis of the deposited data

How the results depend on the processing

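With pooled lists there was no replicate to leave out. No paired analysis was possible because each stage has 1 list made from all its libraries and no result comes from a test. Under the 9 other ways of counting, all 5 genes had more elements at 20 h than at 12 h in 8, the exception being the widest 4425 elements of each list, where Elk did not. Fewer elements at 12 h than at 8 h were found in 3 to 5 genes, and in 0 with the widest elements. More at 20 h than at 8 h were found in 3 or 4. Where the number was 3, duox1 was no longer among them. Its counts at 20 h and 8 h were 3 and 4 in the gene body and 4 and 5 by nearest gene. They were 10 and 10 with 20 kb either side, and 12 and 14 with 50 kb. The setting of the widest elements left the 5 genes with 5, 8, 11 and 8 elements at 8 h, 12 h, 20 h and 72 h. In it no gene met the thresholds, and 3 of 5 had fewer elements at 72 h than at 20 h. With the gene body only there were 21, 15, 35 and 3, and only Sdc met both thresholds. With 50 kb either side the 8 h number was 69, against 73 at 20 h. One gene fell short with 5 kb either side (duox1), with 50 kb (Sdc, by its 72 h count), with elements 100 bp or less apart joined (SHR3), with elements of 400 bp or more (SHR3) and by nearest gene (duox1). With 250 bp either side of a gene end, 3 of the 5 genes had an end element at 8 h and at 20 h. With an overlap of at least 50% of each element asked for, 7.69% of the 20 h elements were held at 72 h and 40.4% at 20 h alone, against 7.02% and 39.1% of the whole list. Other settings kept the totals within 1.5 times and the shares inside their intervals. The unknown depth and the shorter 72 h list limit every comparison with that stage.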
